A study of Mus musculus with 6 samples.

Results

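The TCA cycle and mitochondrial fatty acid oxidation were described here through 41 enzyme genes. These genes were named one by one and not picked by a measured value, but with earlier results of these data known. They cover pyruvate entry, the steps of the cycle, its NADP-linked, shuttle and glutamate side reactions, fatty acid import, β-oxidation and the transfer of its electrons to the respiratory chain. All 41 were found among the 18193 genes that the arrays name through a probe set of a single gene symbol, and all 41 passed the filter on dim genes, which left 12739 genes to test.

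Cells were sorted from femur and tibia bone marrow of HdcGFP mice on a C57BL/6 background, in which green fluorescent protein reports the activity of the histidine decarboxylase gene. Both groups were GFP positive or high and positive for the myeloid integrin CD11b; one was high for the antigen Gr1 (Gr1hi, 3 arrays) and the other low for it (Gr1lo, 3 arrays). All 6 samples are labelled female, the age is not given in the sources used here, and each array received labelled RNA made from 100 ng of total RNA. A GFP gate takes whichever cells have the reporter active, so the groups are defined by their sort and are not pure cell types. The labels do not say whether replicates are separate mice, and p-values therefore measure the spread between these samples only. Values are log2 probe set values that the authors made with GCRMA, every difference is Gr1hi minus Gr1lo on that scale, and a spread of ± is an SD with n = 3 arrays per group.

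Some checks on the arrays bear on all results. The mean of 10 myeloid markers lay between 13.98 and 14.01 in Gr1hi arrays and between 13.14 and 13.44 in Gr1lo arrays, with 3 of 10 called higher in Gr1hi. Markers of T or NK cells averaged 2.39 to 2.42 in Gr1hi and 2.12 to 2.23 in Gr1lo and those of erythroid cells 2.31 to 2.54 in Gr1hi and 2.11 to 2.28 in Gr1lo, below 2.77, the highest value of the 3 control probe sets for absent transcripts. Progenitor and promyelocyte markers moved with the groups: Mpo, Elane, Prtn3 and Kit were called lower in Gr1hi, Cd34 was below the control level in both groups, and the mean of the 5 ranged over 6.26 to 6.88 in Gr1hi and 9.83 to 10.1 in Gr1lo. Of 5 tested monocyte or macrophage markers, 2 were higher and 1 was lower in Gr1hi, and the mean of all 6 was 6.24 to 7.13 in Gr1hi against 5.04 to 5.93 in Gr1lo. Other lists gave 0 calls of 2 tested for eosinophils by limma, 1 lower of 4 for basophils or mast cells, 2 higher and 1 lower of 4 for B cells and 1 higher of 3 for megakaryocytes. All these marker counts stand beside 31.8% lower and 24.6% higher among all tested genes. The mean of 5 basophil or mast cell markers was 3.73, 3.00 and 4.90 in Gr1hi replicates 1 to 3. In Gr1lo replicates 1 to 3 it was 3.69, 3.79 and 4.69. The part of these cells in the enzyme differences was not tested, and in RNA from sorted populations fewer cells of a type and less RNA per cell cannot be told apart. Xist, the RNA of the inactive X chromosome, was at 2.28, 2.43 and 10.14 in Gr1hi replicates 1 to 3 and at 2.34, 1.97 and 10.95 in Gr1lo replicates 1 to 3, while the Y-linked Eif2s3y was at 9.91 to 10.66 in Gr1hi and 9.02 to 9.87 in Gr1lo. These levels go against a uniformly female label, and the replicate 3 arrays stand apart. Without both replicate 3 arrays, 25 of the 41 enzymes were called lower and 4 higher.

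In the TCA cycle, acetyl-CoA made from pyruvate, fatty acids or amino acids is oxidized to carbon dioxide in the mitochondrial matrix, and its electrons are handed to NAD and FAD. In β-oxidation, fatty acids enter the matrix bound to carnitine and are shortened in repeated rounds of dehydrogenation, hydration, dehydrogenation and thiolysis, each round releasing acetyl-CoA for the cycle. Maturing neutrophils are known for few mitochondria and a strong reliance on glycolysis, while immature cells of the lineage keep more oxidative metabolism.

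Most of these enzymes had less transcript in Gr1hi cells, and the falls were deepest for isocitrate dehydrogenase subunit α, short-chain hydroxyacyl-CoA dehydrogenase, fumarase and the GTP-specific succinyl-CoA synthetase subunit as measured by the brightest probe set of each gene. With the mean of all probe sets of a gene, Suclg2 was at −2.63, Hadh at −2.45 and Idh3a at −1.64. Fumarase (Fh1, −4.24) has only 1 probe set, so averaging could not change its value. By limma, with Benjamini-Hochberg adjustment over all 12739 genes at 0.05, 27 of 41 enzymes (65.9%) were called lower in Gr1hi, where 31.8% of all tested genes were, and 3 (7.32%) were called higher, where 24.6% of all tested genes were. The other 11 were not called. The groups' arrays did not overlap for 27 enzymes that lay lower in Gr1hi, against 34.7% of all tested genes, and for 3 that lay higher, against 30.7% of all tested genes. A called fall of at least 2 was found in 10 enzymes (24.4%), against 9.04% of all tested genes. The median difference was −0.79 over the 41 enzymes and 0.03 over all tested genes. With the filter raised to the 60th percentile, 26 of 39 tested enzymes were lower and 3 higher, beside 41.9% lower and 30.1% higher among the 9129 genes then tested.

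The scale of the arrays sets how many of the smaller differences are called. Centring each array on its median over kept genes added 0.675 to every difference, so any smaller fall had to turn sign. The median of all genes moved to 0.7. On that scale 17 enzymes were lower and 13 higher, beside 18.2% lower and 65.6% higher among all genes. Centring on the 9 hybridization controls instead brought the median of all genes to −0.21. There, 28 enzymes were lower and 0 higher by the same limma test (1 higher, Got1, at an unadjusted p under 0.05). Among all genes 37.5% were then lower and 15.1% higher. Whether this scale corrects for the RNA content of the samples was not tested. Called lower on all 3 scales were 17 enzymes, namely Dlat, Idh3a, Idh3b, Suclg1, Suclg2, Fh1, Idh2, Me2, Acadl, Hadhb, Hadh, Echs1, Acaa2, Eci1, Decr1, Etfa and Etfb, and none was called higher on all 3. The plot of differences on the 3 scales shows which genes keep their side.

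**Figure D1:**
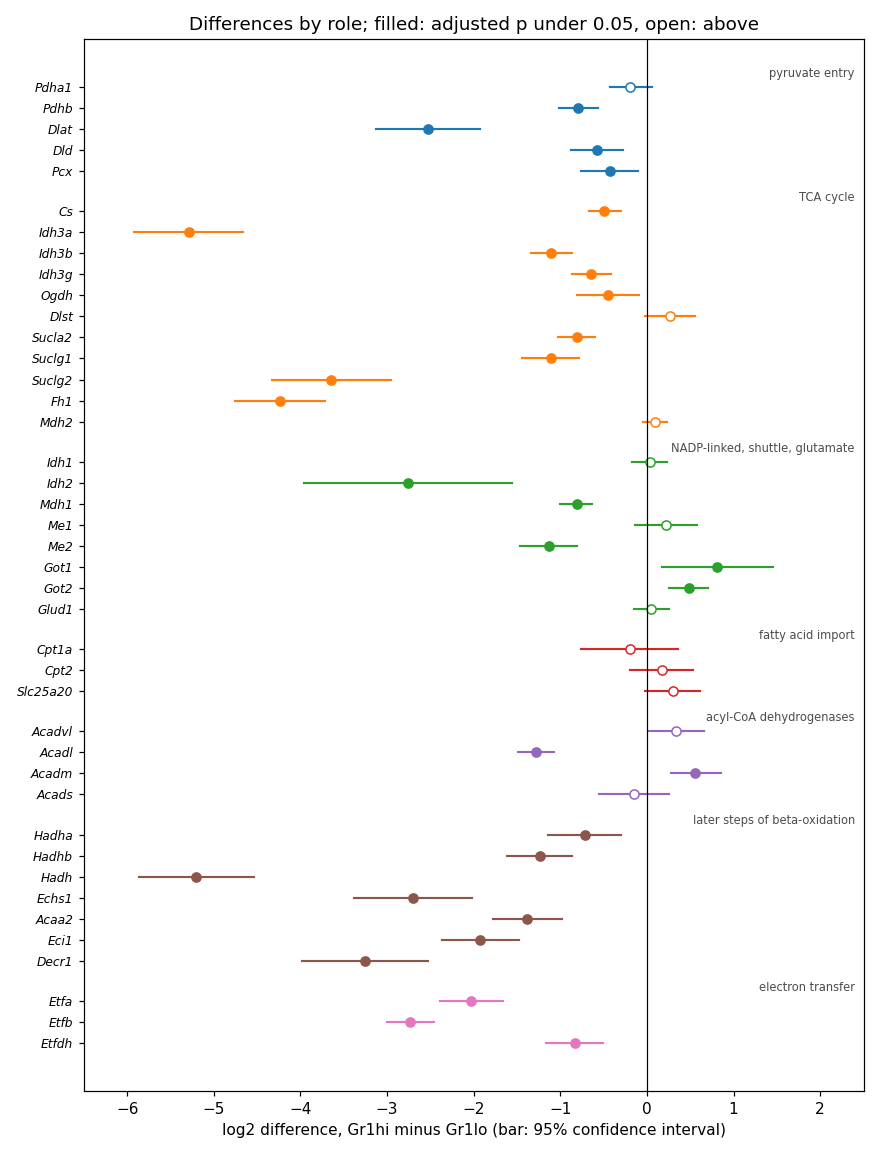
Difference in log2 value, Gr1hi minus Gr1lo, for each of the 41 enzymes grouped by role, with its 95% confidence interval from limma. The largest falls were −5.29 for Idh3a and −5.2 for Hadh, and the largest rise was 0.81 for Got1.

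**Figure D2:**
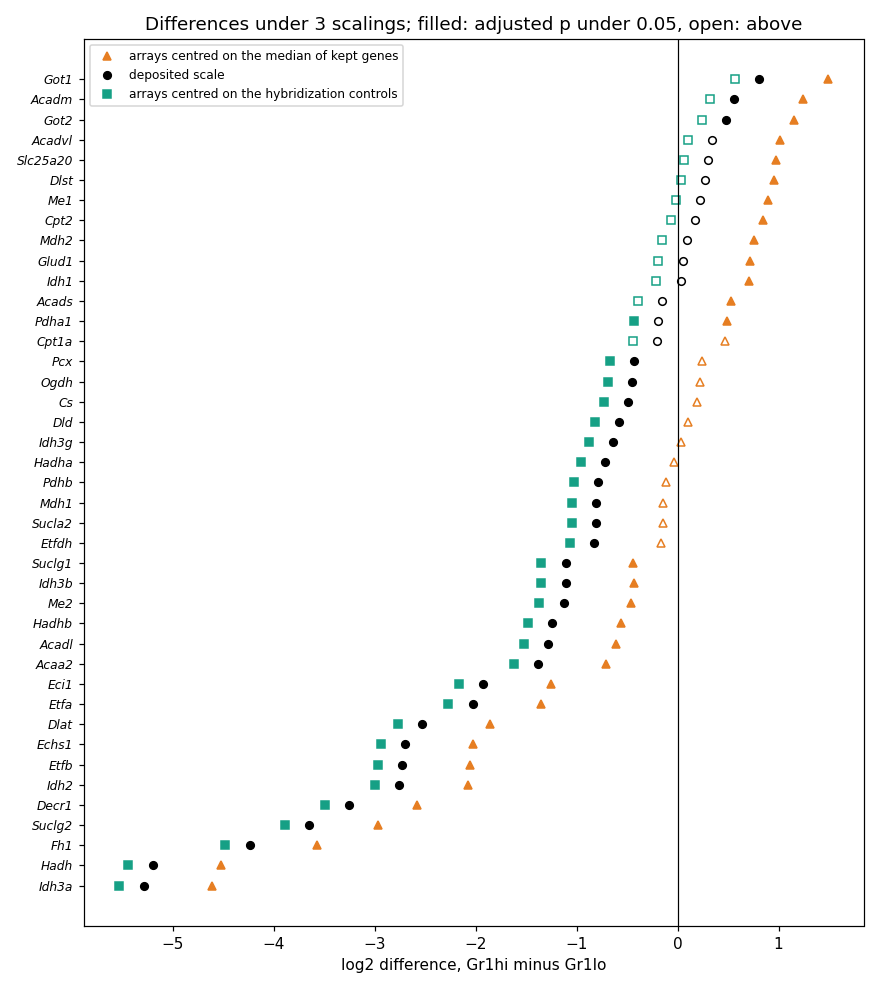
The same differences (log2, Gr1hi minus Gr1lo) on 3 scales: deposited values, arrays centred on their median over kept genes, and arrays centred on the hybridization controls. Filled symbols are called at an adjusted p under 0.05 and open ones are not. The 17 enzymes named as lower on all 3 scales stay left of 0, while the 3 that rose on the deposited scale stay right of 0 but were not called after centring on the hybridization controls.

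Pyruvate entry was lower in Gr1hi for 4 of 5 enzymes (80%), beside 31.8% of all tested genes, with a median of −0.58. After centring each array on its median (median centring) 1 was lower and 1 higher, beside 18.2% lower and 65.6% higher among all genes. Dlat, the acetyltransferase core (E2) of the pyruvate dehydrogenase complex, was at 5.20, 5.58 and 5.22 in Gr1hi arrays and at 8.15, 8.18 and 7.26 in Gr1lo arrays, so every Gr1hi array lay below every Gr1lo array. The difference was −2.53 (SE 0.27), a 5.78-fold fall, with a limma adjusted p of 3.2e-05. Pdhb, the E1 β subunit, was at 9.38, 9.39 and 9.45 in Gr1hi and 10.13, 10.27 and 10.20 in Gr1lo, a difference of −0.79 (adjusted p = 0.000111). Its partner Pdha1, the E1 α subunit, averaged 10.15 ± 0.11 in Gr1hi and 10.34 ± 0.11 in Gr1lo and was not called (adjusted p = 0.17). Dld, the E3 subunit that the complex shares with 2-oxoglutarate dehydrogenase, averaged 9.06 ± 0.15 in Gr1hi and 9.64 ± 0.16 in Gr1lo, a fall of −0.58 that turned to 0.10 with median centring. Pcx, pyruvate carboxylase, which makes oxaloacetate, gave −0.43 (adjusted p = 0.0306), but its mean in Gr1hi, 2.67 ± 0.28, was under the control level for absent transcripts, and in Gr1lo it was 3.10 ± 0.13. The Pcx call was lost without Gr1hi replicate 3, Gr1lo replicate 2 or Gr1lo replicate 3 (adjusted p = 0.0957, 0.0745 and 0.0821). The Pcx difference was −0.27 without Gr1hi replicate 3, and its sign turned to 0.24 with median centring. The arrays also carry 4 control probe sets for Pcx, which were not tested. They were at 2.43 to 3.23 in Gr1hi and at 2.4 to 3.24 in Gr1lo, and the groups overlapped on each of them. The Pcx fall thus rests on 1 dim probe set.

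**Figure D3:**
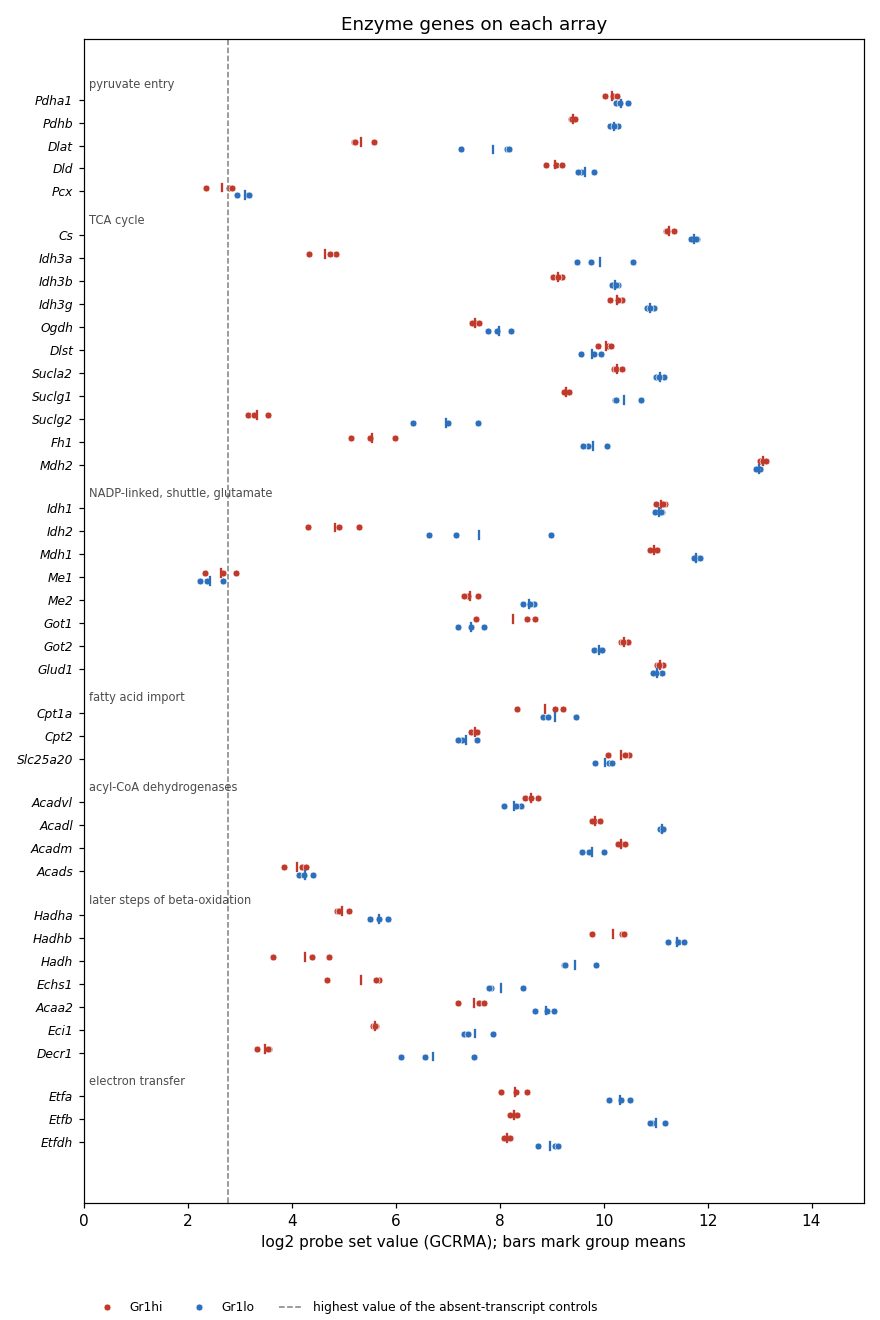
Log2 value of each of the 41 enzymes on each of the 6 arrays, with the Gr1hi arrays and the Gr1lo arrays as separate point colours, bars at the group means and a dashed line at 2.77, the highest control for absent transcripts. The points of the groups lie far apart for Idh3a, Fh1, Hadh, Suclg2 and Decr1 and lie together for Mdh2, Idh1 and Glud1.

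Within the cycle itself, 9 of 11 enzymes (81.8%) were lower in Gr1hi, beside 31.8% of all tested genes, with a median of −0.81. By limma 0 were higher (0 also at an unadjusted p under 0.05), beside 24.6% of all tested genes. After median centring 5 were lower and 2 higher, beside 18.2% lower and 65.6% higher among all genes. The falls were uneven along the cycle and within its complexes. Idh3a, the catalytic subunit of the NAD-dependent isocitrate dehydrogenase, was at 4.86, 4.73 and 4.33 in Gr1hi and at 9.75, 10.56 and 9.48 in Gr1lo. The Gr1hi arrays were all several log2 units below the Gr1lo arrays, a difference of −5.29 (SE 0.28), 39.1-fold, with an adjusted p of 5.15e-07. The other subunits of the same enzyme fell less: Idh3b averaged 9.12 ± 0.09 in Gr1hi and 10.23 ± 0.05 in Gr1lo, and Idh3g 10.26 ± 0.12 in Gr1hi and 10.90 ± 0.06 in Gr1lo. Their differences were −1.11 (adjusted p = 1.68e-05) and −0.64 (adjusted p = 0.000378), the second of which turned to 0.03 with median centring.

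Fh1, fumarase, was at 5.98, 5.51 and 5.14 in Gr1hi and at 9.70, 10.06 and 9.60 in Gr1lo. The difference was −4.24 (SE 0.23), or 18.9-fold lower, with an adjusted p of 5.81e-07. Succinyl-CoA synthetase joins a shared α subunit, Suclg1, with a β subunit that makes either GTP (Suclg2) or ATP (Sucla2). Suclg2 was at 3.16, 3.27 and 3.55 in Gr1hi, not far above the control level for absent transcripts, and at 7.01, 7.59 and 6.33 in Gr1lo. It was 12.5-fold lower in Gr1hi (−3.65, SE 0.3, adjusted p = 7.21e-06). Sucla2 fell 1.76-fold, averaging 10.27 ± 0.09 in Gr1hi and 11.08 ± 0.09 in Gr1lo, and Suclg1 fell 2.16-fold, averaging 9.28 ± 0.06 in Gr1hi and 10.39 ± 0.28 in Gr1lo.

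Citrate synthase, Cs, which opens the cycle, averaged 11.26 ± 0.09 in Gr1hi and 11.75 ± 0.05 in Gr1lo, a fall of −0.49 (adjusted p = 0.000656) that turned to 0.19 with median centring. Mdh2, the mitochondrial malate dehydrogenase that closes it, averaged 13.07 ± 0.06 in Gr1hi and 12.98 ± 0.05 in Gr1lo, and its groups overlapped. It was not called on the deposited scale (adjusted p = 0.265), though a further probe set, at 12.49 in Gr1hi and 12.23 in Gr1lo on average, was called higher (0.26, adjusted p = 0.0112). Ogdh, the E1 subunit of the 2-oxoglutarate dehydrogenase complex, averaged 7.53 ± 0.07 in Gr1hi and 7.98 ± 0.23 in Gr1lo, a difference of −0.45 with an adjusted p of 0.0378. Leaving out any array other than Gr1lo replicate 3 ended that call (adjusted p = 0.0598 to 0.115), as did testing with no filter (0.0588) and repeated quantile normalization (−0.05, adjusted p = 0.819), and median centring turned its sign to 0.22. Another Ogdh probe set was not called (−0.19). Dlst, the E2 subunit of that complex, averaged 10.04 ± 0.12 in Gr1hi and 9.77 ± 0.20 in Gr1lo and was not called (0.27, adjusted p = 0.107), though 2 further probe sets of the gene were called higher in Gr1hi, both at 0.86.

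Of 8 NADP-linked, shuttle and glutamate enzymes, 3 were lower (37.5%) and 2 higher (25%) in Gr1hi, with a median of 0.04. These shares lay near the 31.8% lower and 24.6% higher among all tested genes. After median centring 2 were lower and 5 higher, beside 18.2% lower and 65.6% higher among all genes. With centring on the hybridization controls 3 were lower and 0 higher by limma, beside 37.5% lower and 15.1% higher among all genes. Idh2, the mitochondrial NADP-dependent isocitrate dehydrogenase, was at 4.90, 4.31 and 5.30 in Gr1hi and at 7.16, 8.98 and 6.64 in Gr1lo, with Gr1lo replicate 2 far above its other arrays. The groups did not overlap, and the difference was −2.76 (SE 0.53, adjusted p = 0.00156). Another tested Idh2 probe set, dim in both groups at 4.53 in Gr1hi and 4.26 in Gr1lo on average, gave 0.27 and was not called, so the Idh2 fall rests on the brighter one. Idh1, its cytosolic counterpart, was at 11.00, 11.18 and 11.14 in Gr1hi and at 11.12, 10.99 and 11.11 in Gr1lo, with overlapping groups and a difference of 0.03 (95% confidence interval −0.17 to 0.23).

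The malate dehydrogenase of the cytosol, Mdh1, which works in the malate-aspartate shuttle, averaged 10.97 ± 0.07 in Gr1hi and 11.78 ± 0.06 in Gr1lo, a fall of −0.81 (adjusted p = 2.41e-05). Another pair of its probe sets gave −1.26 and −1.63, and a dim one 0.12. Me2, the mitochondrial malic enzyme, fell 2.19-fold, averaging 7.43 ± 0.13 in Gr1hi and 8.57 ± 0.10 in Gr1lo. Another Me2 probe set was lower at −1.38. A further one, averaging 6.85 in Gr1hi and 7.08 in Gr1lo, was not called (−0.23, limma adjusted p = 0.256). Nor was a dimmer one (−0.39, limma adjusted p = 0.147). The cytosolic counterpart of Me2, Me1, had means under the control level for absent transcripts in both groups, 2.65 ± 0.29 in Gr1hi and 2.43 ± 0.23 in Gr1lo. The aspartate aminotransferases were the 2 genes of this set that were called higher. Got2, the mitochondrial form, was at 10.34, 10.46 and 10.37 in Gr1hi and at 9.82, 9.94 and 9.97 in Gr1lo, so it rose by 0.48 (adjusted p = 0.00227), and its 2 further probe sets rose by 0.84 and 0.61. Got1, the cytosolic form, was at 8.53, 8.68 and 7.55 in Gr1hi and at 7.70, 7.20 and 7.44 in Gr1lo; its groups overlapped through Gr1hi replicate 3, and the rise of 0.81 had an adjusted p of 0.035. The Got1 call was lost without Gr1hi replicate 1 (adjusted p = 0.116) or 2 (0.134), or without Gr1lo replicate 2 (0.0902) or 3 (0.0697). With centring on the hybridization controls neither gene was called (adjusted p = 0.0678 for Got1 and 0.239 for Got2). Glud1, glutamate dehydrogenase, averaged 11.08 ± 0.06 in Gr1hi and 11.03 ± 0.09 in Gr1lo and was not called (0.05, 95% confidence interval −0.15 to 0.25).

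Fatty acid import gave 0 calls among its 3 genes by limma, beside 31.8% lower and 24.6% higher among all tested genes. At an unadjusted limma p under 0.05 it also gave 0. Cpt1a, the carnitine palmitoyltransferase of the outer membrane that controls entry, averaged 8.87 ± 0.47 in Gr1hi and 9.07 ± 0.34 in Gr1lo. Its 95% confidence interval, −0.76 to 0.36, is wide, and without Gr1hi replicate 2 its difference of −0.20 became 0.07. Cpt2, the inner membrane transferase, averaged 7.52 ± 0.06 in Gr1hi and 7.35 ± 0.20 in Gr1lo. Slc25a20, the carnitine-acylcarnitine carrier, averaged 10.33 ± 0.22 in Gr1hi and 10.03 ± 0.17 in Gr1lo (0.30, adjusted p = 0.099), was called higher without Gr1hi replicate 2 (0.42, adjusted p = 0.0279), and had a further probe set that was called higher at 0.61. With median centring Cpt2 and Slc25a20 were called higher, as were 65.6% of all genes.

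The acyl-CoA dehydrogenases, which take the first electrons from acyl-CoA of different chain lengths, gave 1 lower, 1 higher and 2 not called. That is 25% in each direction, beside 31.8% lower and 24.6% higher among all tested genes. Acadl, for long chains, was at 9.82, 9.77 and 9.94 in Gr1hi and at 11.15, 11.09 and 11.14 in Gr1lo, a difference of −1.28 (SE 0.09, adjusted p = 3.15e-06). Acadm, for medium chains, was at 10.34, 10.27 and 10.41 in Gr1hi and at 9.72, 9.59 and 10.01 in Gr1lo, with no overlap. Its rise of 0.56 (SE 0.13) had an adjusted p of 0.0038, and after centring on the hybridization controls the gene was not called (adjusted p = 0.128). Acadvl, for very long chains, averaged 8.61 ± 0.12 in Gr1hi and 8.27 ± 0.17 in Gr1lo; every Gr1hi array was above every Gr1lo array, but the adjusted p was 0.0729. Acads, for short chains, averaged 4.11 ± 0.22 in Gr1hi and 4.26 ± 0.14 in Gr1lo and was not called (adjusted p = 0.495).

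All 7 enzymes of the later steps of β-oxidation were lower in Gr1hi, beside 31.8% of all tested genes, with a median of −1.93. After median centring 6 of 7 were lower as well, beside 18.2% of all genes. Hadh, the hydroxyacyl-CoA dehydrogenase for shorter chains, was at 4.72, 3.64 and 4.39 in Gr1hi and at 9.24, 9.85 and 9.25 in Gr1lo. The difference was −5.20 (SE 0.29), or 36.7-fold lower, with an adjusted p of 7.4e-07. Decr1, the dienoyl-CoA reductase needed for polyunsaturated fatty acids, was at 3.57, 3.54 and 3.33 in Gr1hi and at 6.57, 7.5 and 6.11 in Gr1lo, a fall of −3.25 (9.52-fold, adjusted p = 2.13e-05). Eci1, the isomerase that moves double bonds of unsaturated chains, averaged 5.60 ± 0.02 in Gr1hi and 7.53 ± 0.30 in Gr1lo. Echs1, the short-chain enoyl-CoA hydratase, was at 5.68, 4.67 and 5.63 in Gr1hi and at 7.83, 8.45 and 7.80 in Gr1lo, a 6.5-fold fall (−2.70, adjusted p = 4.72e-05). Acaa2, the thiolase that releases acetyl-CoA, fell 2.6-fold, averaging 7.5 ± 0.28 in Gr1hi and 8.88 ± 0.19 in Gr1lo.

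Hadha and Hadhb encode the α and β subunits of the mitochondrial trifunctional protein, which carries out the last steps for long chains. Hadhb averaged 10.17 ± 0.35 in Gr1hi and 11.41 ± 0.16 in Gr1lo, a fall of −1.24 (adjusted p = 0.000169). Hadha averaged 4.96 ± 0.12 in Gr1hi and 5.68 ± 0.18 in Gr1lo, a fall of −0.72 (adjusted p = 0.00861). The Hadha call was lost without both replicate 3 arrays (adjusted p = 0.0581), with repeated quantile normalization (−0.03) and with median centring (−0.04). In RefSeq GRCm38.p6 these genes start 272 bases apart on opposite strands, so both subunits share the stretch between their starts at chr5:30154981-30155252, which is printed here on the plus strand because it lies upstream of 2 enzymes of one protein; the pair was chosen after its values were seen. None of the 4 motifs described for the other promoters lies in it, so no letters are in capitals.
Hadha-Hadhb: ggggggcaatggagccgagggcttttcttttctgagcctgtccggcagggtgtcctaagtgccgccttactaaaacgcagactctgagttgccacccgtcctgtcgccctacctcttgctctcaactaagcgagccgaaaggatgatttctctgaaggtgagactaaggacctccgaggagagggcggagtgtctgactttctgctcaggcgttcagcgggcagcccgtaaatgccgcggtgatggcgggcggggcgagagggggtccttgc

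Electron transfer out of β-oxidation fell at all 3 of its genes, beside 31.8% lower among all tested genes, with a median of −2.03. Etfb, the β subunit of the electron transfer flavoprotein, was at 8.32, 8.33 and 8.19 in Gr1hi and at 10.94, 11.19 and 10.90 in Gr1lo. Its difference of −2.73 (SE 0.12), 6.64-fold, had the smallest adjusted p of the 41 enzymes, 2.19e-07. Etfa, the α subunit, was at 8.02, 8.52 and 8.32 in Gr1hi and at 10.10, 10.51 and 10.33 in Gr1lo, a 4.07-fold fall (−2.03, SE 0.16, adjusted p = 5.61e-06). In both subunits all Gr1hi arrays lay well below all Gr1lo arrays. Etfdh, which passes the electrons on to ubiquinone, averaged 8.14 ± 0.06 in Gr1hi and 8.98 ± 0.21 in Gr1lo, a fall of −0.83 (adjusted p = 0.000762) that was not called with median centring (−0.16, adjusted p = 0.308).

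Promoters of 37 of the 41 enzymes, taken as the 250 bases before the start of the gene, were matched in the RefSeq table for GRCm38.p6. Several starts were listed for 4 enzymes. Idh3a, Me2, Acaa2 and Decr1 were not matched. Motifs of 4 factors linked to mitochondrial genes were counted on both strands. The NRF1 half-site GCATGCGC was found in 5 of 37 (13.5%), in the promoters of Acadm, Etfa, Etfdh, Glud1 and Ogdh, against 4.76% of 10281 promoters of tested genes and 2.56% of 27025 promoters in all. Ogdh has several starts and was counted through later ones, as its stretch at chr11:6291920-6292169 holds no NRF1 half-site. The ETS motif CCGGAAGT was found in 2 of 37 (5.41%), Cpt2 and Slc25a20, against 6.3% of tested genes. The E-box CACGTG was found in Ogdh and Pcx (5.41%), against 9.67% of tested genes. The oestrogen-related receptor motif TCAAGGTCA was found in 0 of 37, against 0.37% of tested genes. Of the 5 genes that hold an NRF1 half-site, 3 were lower on the deposited scale, namely Etfa, Etfdh and Ogdh, while Acadm was higher and Glud1 was not called. Shown 5′ to 3′ on each gene's strand are these promoters of the electron transfer genes and of the dehydrogenase that went the other way, with matches to the NRF1 half-site on either strand in capitals. They lie at chr9:55512244-55512493 on the minus strand for Etfa, chr3:79628768-79629017 on the minus strand for Etfdh, and chr3:153944644-153944893 on the minus strand for Acadm. Counted from the start of the gene, the match begins at −105 in Etfa and at −158 in Acadm. In Etfdh, matches on both strands overlap, so the capitals run for 10 bases.
Etfa: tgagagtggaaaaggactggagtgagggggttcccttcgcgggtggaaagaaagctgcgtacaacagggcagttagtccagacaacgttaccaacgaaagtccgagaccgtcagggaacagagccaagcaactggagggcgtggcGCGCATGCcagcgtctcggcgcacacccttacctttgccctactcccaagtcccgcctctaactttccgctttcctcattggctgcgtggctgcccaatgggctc
Etfdh: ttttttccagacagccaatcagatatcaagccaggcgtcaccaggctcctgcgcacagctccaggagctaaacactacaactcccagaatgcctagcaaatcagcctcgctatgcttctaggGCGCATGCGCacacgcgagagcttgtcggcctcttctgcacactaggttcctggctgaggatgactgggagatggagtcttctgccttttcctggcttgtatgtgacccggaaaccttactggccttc
Acadm: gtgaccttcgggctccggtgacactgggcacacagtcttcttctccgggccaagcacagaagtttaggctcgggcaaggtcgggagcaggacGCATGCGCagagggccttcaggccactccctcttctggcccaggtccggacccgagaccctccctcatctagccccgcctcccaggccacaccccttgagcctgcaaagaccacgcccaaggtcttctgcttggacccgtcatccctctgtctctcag

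Enzymes that catalyse the same reaction in another compartment or on another substrate were compared by the log2 ratio of the pair within each array, which shows unequal change and not the level of either. Of 11 such pairs, 9 had ratios that did not overlap between the groups. Each of these had a two-sided exact permutation p of 0.1, the smallest that 3 against 3 arrays allow. After Benjamini-Hochberg adjustment over the 11 it was 0.122, so the design cannot reach 0.05. The share of other gene pairs with non-overlapping ratios was not computed. Among single tested genes, the groups did not overlap for 34.7% that lay lower in Gr1hi and 30.7% that lay higher. The acyl-CoA dehydrogenase pairs are all combinations of Acadl, Acadm, Acads and Acadvl, so the pairs are not independent. The mitochondrial Idh2 changed by −2.79 relative to the cytosolic Idh1, but Me2 by −1.35 relative to Me1, whose signal was at the level of absent transcripts. In malate dehydrogenase it was the cytosolic Mdh1 that changed by −0.90 relative to the mitochondrial Mdh2. Suclg2 changed by −2.83 relative to Sucla2. Acadl changed by −1.84 relative to Acadm, by −1.62 relative to Acadvl and by −1.13 relative to Acads. Got1 relative to Got2 (0.34, exact p = 0.4) and Acadm relative to Acadvl (0.23, exact p = 0.2) overlapped between the groups.

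Subunits of the same complex also changed by unequal amounts. These 9 pairs were chosen after their values were seen and are given with no test. Idh3a changed by −4.18 relative to Idh3b and by −4.65 relative to Idh3g, Dlat by −2.34 relative to Pdha1, and Suclg2 by −2.54 relative to Suclg1. Smaller gaps were found for Ogdh relative to Dlst (−0.72) and Hadhb relative to Hadha (−0.52).

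Several enzymes are measured by more than 1 probe set: the 41 have 89, of which 38 beyond the chosen one were tested, in 24 genes. Of 25 further probe sets of genes called lower, 17 were lower as well, 0 were higher and 8 were not called by limma. Some of the 17 appear to have passed the filter through their Gr1lo arrays alone. Examples are the further Decr1 probe set and an Idh3a one (2.32 in Gr1hi and 3.11 in Gr1lo on average). Such probe sets could hardly be called higher, so they add little to the count. The shares called among all probe sets of the arrays are not given here. Of 11 further probe sets of genes that were not called, 4 were higher, 0 were lower and 7 were not called. Dlat was lower by −2.39 and −1.37 on its other probe sets, and Acaa2 by −1.59 and −1.84. Hadh was lower by −2.16 on another (3.86 ± 0.36 in Gr1hi and 6.02 ± 0.72 in Gr1lo, adjusted p = 0.000468) and at −0.01 on a further one. The other Idh3a probe sets were dim, averaging 3.07 in Gr1hi against 3.51 in Gr1lo, and 2.32 in Gr1hi against 3.11 in Gr1lo, so the size of the Idh3a fall comes from 1 probe set; the mean of its probe sets gave −1.64 (adjusted p = 2.57e-05). Averaging probe sets also ended the calls of Dld (−0.29, adjusted p = 0.0755) and Sucla2 (−0.26, adjusted p = 0.0633) and shrank Idh2 to −1.25, Hadh to −2.45, Decr1 to −1.83, Acadl to −0.68, Hadhb to −0.71, Etfdh to −0.44 and Pdhb to −0.50. For Dld, Sucla2, Acadl and Etfdh, the further probe sets did not pass the filter and averaged under 2.77 in both groups. The averages of these genes thus mix in signal at the level of absent transcripts. The chosen probe sets of Hadh, Hadhb, Mdh1 and Cpt1a carry the suffix by which the array's maker marks probes that may bind other transcripts, and those of Suclg2, Acaa2, Idh3b and Idh1 the suffix for probes shared by several transcripts.

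**Figure D4:**
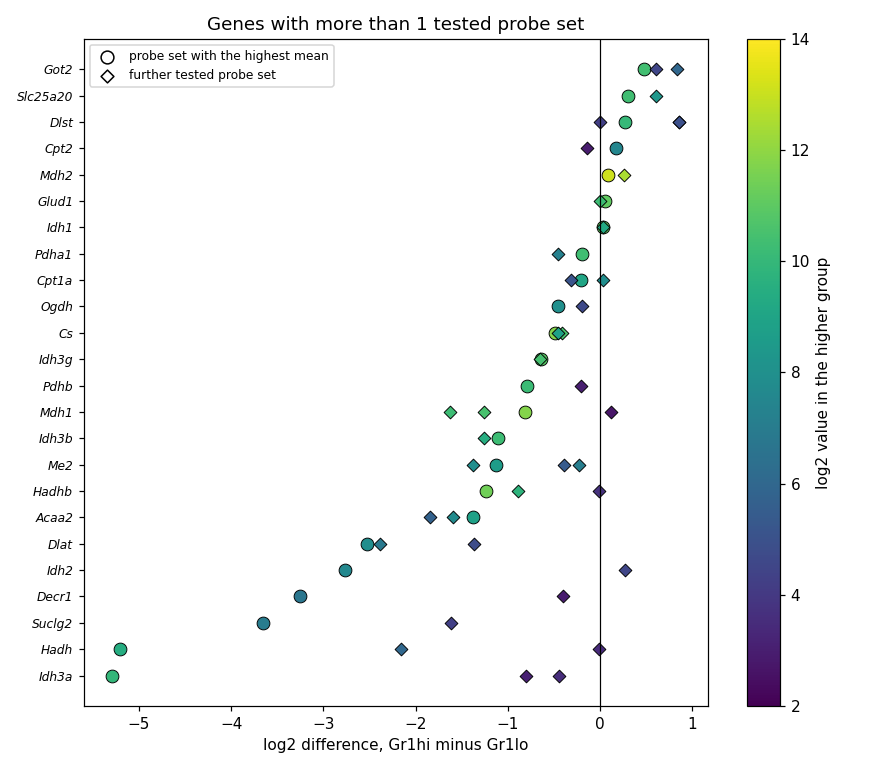
Difference in log2 value (Gr1hi minus Gr1lo) for every probe set of the enzymes that have more than 1 tested, with the chosen, brightest probe set as a circle, the others as diamonds, and colour for the mean log2 value in the higher group. The chosen Idh3a probe set lies at −5.29 and the chosen Hadh probe set at −5.2, while their other probe sets lie nearer 0.

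A wider list of 74 genes around these enzymes, none of them among the 41, was read from the same fit; 65 were measured, 55 passed the filter, and 22 were lower (40%) and 13 higher (23.6%) in Gr1hi, beside 31.8% lower and 24.6% higher among all tested genes, with a median of −0.07. After median centring 13 were lower and 32 higher, beside 18.2% and 65.6% of all genes, and after centring on the hybridization controls 26 were lower and 7 higher, beside 37.5% and 15.1% of all genes. The smaller sets of this list hold few genes each, and their counts are given as descriptions against the same shares. The other 9 genes of the list were not analysed here.

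Of 5 other TCA genes tested, 3 were lower. Sdhc, a membrane anchor of succinate dehydrogenase, averaged 7.0 ± 0.12 in Gr1hi and 8.33 ± 0.18 in Gr1lo (−1.33, adjusted p = 7.17e-05), and Sdha, its flavoprotein, fell by 0.66 on the log2 scale but lost the call with the mean of its probe sets (−0.11) and turned to 0.02 with median centring. Its partners Sdhb (0.20) and Sdhd (0.03) were not called. Aco1, the cytosolic aconitase, averaged 4.78 ± 0.92 in Gr1hi and 7.11 ± 0.39 in Gr1lo (−2.33, adjusted p = 0.000997). With the mean of their probe sets Aco1 was at −1.09 and Sdhc at −0.55, both still called. Dhtkd1, a dehydrogenase of lysine breakdown, did not pass the filter.

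Among genes that control pyruvate entry, 5 of 7 tested were lower (71.4%, beside 31.8% of all tested genes). These included both opposing kinds of regulator of pyruvate dehydrogenase. Pdk1, an inhibitory kinase, averaged 3.53 ± 0.57 in Gr1hi and 5.44 ± 1.09 in Gr1lo (−1.90, adjusted p = 0.00855, and −0.72 with the mean of its probe sets), and Pdp1, an activating phosphatase, averaged 2.84 ± 0.36 in Gr1hi and 4.48 ± 0.26 in Gr1lo (adjusted p = 0.000118). Pdhx, which binds E3 into the complex, averaged 3.57 ± 0.07 in Gr1hi and 4.70 ± 0.29 in Gr1lo (adjusted p = 0.00054). The phosphatase Pdp2 (−0.60) and the kinase Pdk3 (−0.36) were lower too, though both turned sign with median centring, to 0.08 for Pdp2 and 0.32 for Pdk3. The Gr1hi mean of Pdp2, 2.32, was below the control level for absent transcripts, so the size of its fall is uncertain. Pdp2 appears to have passed the filter through its Gr1lo arrays (2.72, 2.84 and 3.19) alone. It could then hardly be called higher, so its call adds little to the count. The Pdk3 call (adjusted p = 0.0458) was lost whenever any 1 array other than Gr1hi replicate 2 was left out (adjusted p = 0.0567 to 0.151). Mpc1, a subunit of the pyruvate carrier, averaged 11.37 ± 0.13 in Gr1hi and 11.37 ± 0.08 in Gr1lo, and Pdpr (0.31) was not called. Pdk2 and Pdk4 did not pass the filter.

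Of 7 tested genes of fatty acid activation and uptake, 2 were lower (28.6%, beside 31.8% of all tested genes) and 1 higher (14.3%, beside 24.6%). Slc27a4, a transporter with acyl-CoA synthetase activity, averaged 10.26 ± 0.22 in Gr1hi and 8.21 ± 0.44 in Gr1lo, a rise of 2.05 (adjusted p = 3.08e-05) that was called on all 3 scales, at 2.73 with median centring and 1.81 with centring on the hybridization controls. Acsl3, an acyl-CoA synthetase, fell by 1.00 and Slc22a5, the carnitine importer, fell by 0.92 on the log2 scale, neither of which was called with median centring; with the mean of their probe sets Acsl3 was at −0.39 and Slc22a5 at −0.46. Acsl4 (0.13), Acsl5 (−0.19), Slc27a1 (0.12) and Crat (0.30), the carnitine acetyltransferase, were not called; Acsl6 and Cd36 did not pass the filter.

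Of 9 other acyl-CoA dehydrogenases and thiolases, 5 were lower and 2 higher. Acad9, which also serves in complex I assembly, gave −2.99 (adjusted p = 9.16e-06; −1.62 with the mean of its probe sets), Acat1, the mitochondrial acetoacetyl-CoA thiolase, gave −2.41 (adjusted p = 4.48e-06) and Ivd, of leucine breakdown, gave −1.78 (adjusted p = 3.93e-05). Among 6 carriers, 2 were lower and 1 higher, the falls being of the dicarboxylate carrier Slc25a10 (−1.45) and the aspartate-glutamate carrier Slc25a13 (−1.53). The Gr1hi mean of Slc25a13, 2.65, was below the control level for absent transcripts, so the size of its fall is uncertain, and Slc25a10 was at −0.88 with the mean of its probe sets. Of 4 peroxisomal genes, 1 was lower and 2 were higher. Among 6 genes linked to the cycle, Pck2, mitochondrial phosphoenolpyruvate carboxykinase, was lower at −1.40 (−0.80 with the mean of its probe sets and −0.85 with repeated quantile normalization), and D2hgdh, which oxidizes D-2-hydroxyglutarate, was higher at 1.15. The other called gene of the 6 was Acod1, which turns the TCA intermediate cis-aconitate into itaconate and was higher in Gr1hi at 10.08 ± 0.71 against 3.01 ± 0.35 in Gr1lo.

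Of 11 regulators, 3 were lower (27.3%, beside 31.8% of all tested genes) and 5 higher (45.5%, beside 24.6%) in Gr1hi. Tfam, the transcription factor of mitochondrial DNA, averaged 5.35 ± 0.30 in Gr1hi and 8.45 ± 0.28 in Gr1lo (−3.10, adjusted p = 2.71e-06), and the mean of its probe sets gave −1.90. Pprc1, a coactivator of mitochondrial genes, gave −2.18 (adjusted p = 0.00223). Pnpla2, the lipase that frees fatty acids from lipid droplets, averaged 6.33 ± 0.87 in Gr1hi and 4.12 ± 0.25 in Gr1lo, a rise of 2.20 (adjusted p = 0.00084), or 1.18 with the mean of its probe sets. Tfam, Pprc1 and Pnpla2 kept their direction and call on all 3 scales.

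**Figure D5:**
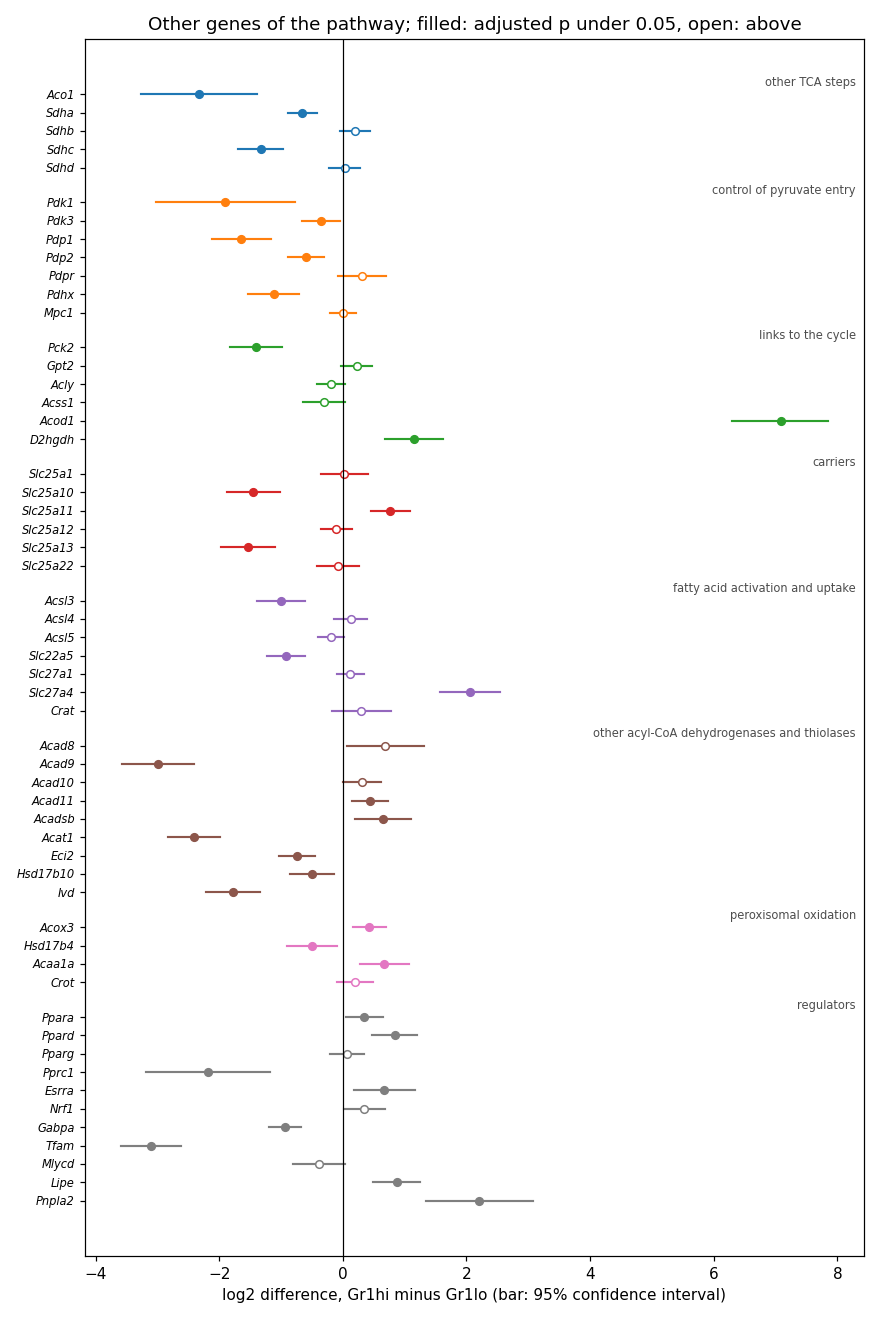
Difference in log2 value (Gr1hi minus Gr1lo) for the 55 tested genes of the wider list by their place in the pathway, with 95% confidence intervals from limma and filled points for called genes. Acod1 lies farthest right at 7.08, and Tfam at −3.1 and Acad9 at −2.99 lie farthest left.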

How the data were processed

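Total RNA of 6 sorted bone marrow samples was hybridized to Affymetrix 3′ expression arrays. The deposited log2 values of 45101 probe sets were made by the authors with GCRMA, per the submitters' processing notes; which version and which settings were used is not stated in them. The values ran from 0.87 to 15.01 with array medians of 2.86 to 2.94, and the table has no detection calls, so dimness was read against 3 control probe sets of absent transcripts. The number of arrays limits the precision.

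Probe sets with 1 symbol in the platform annotation (34945) named 18193 genes, and the brightest probe set on average over the 6 arrays stood for each gene; 932 probe sets with several symbols, 9160 with none and 64 controls named no gene. Of these genes, 18031 were found by Entrez identifier in the RefSeq table of GRCm38.p6, which changed 0 symbols. Genes above the 40th percentile of the array in at least 3 of 6 arrays were tested two-sided with lmFit and eBayes (with trend, no covariates) of limma 3.58.1 under R 4.3.3, with Benjamini-Hochberg adjustment at 0.05. The fit was tested on simulated data with 50 of 12739 genes changed at each size. It recovered 32% of changes of 0.5 on the log2 scale, 64% of 1, 96% of 2 and 100% of 4. There were 8 false calls (5.19% of calls). Far more genes were called in the real data, so recovery there may differ, but small changes can be missed. Python 3.11.15 with pandas 2.3.3 served for tables and matplotlib 3.10.9 for figures.

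The 41 enzymes, the wider list of 74 genes, the markers and the tests were chosen with earlier results of these data known. All 41 enzymes are named; of the wider list, all genes of pyruvate control, other TCA steps and fatty acid activation are named, and others only where called with a size of at least 1. Paralogue pairs were compared by exact permutation. Promoter sequences came from RefSeq.

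Results were recomputed with the filter left out or set at the 60th percentile, with averaged or single probe sets, with eBayes robust or without trend, after quantile normalization or centring, with weighted arrays, with replicate numbers as a block, at 0.01, and without each array or both replicate 3 arrays. One label of Gr1lo replicate 3 could be read as GFP negative; its title and source put it in the Gr1lo group, where it was kept.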

Additional observations from a re-analysis of the deposited data

How the results depend on the processing

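Of 732 differences of single enzymes under the alternatives, 652 kept direction and call, 34 lost the call, 21 gained one and 25 changed sign. The 10 falls of at least 2 were called lower in every refit of the chosen probe set or of the probe set mean, though not on every single probe set. Leaving out each array in turn gave 25 to 26 enzymes lower, 2 to 3 higher and a median of −0.81 to −0.76. Averaging a gene's probe sets gave 6 higher and a median of −0.57, and repeated quantile normalization 5 higher and −0.67. Median centring gave 17 lower, 13 higher and a median of −0.12, and centring on the hybridization controls 0 higher by limma and −1.03. The cause was not tested, except that both centrings move every gene by a constant, which shifted the median of all genes to 0.7 and −0.21.

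With the replicate number as a block 27 enzymes were lower, 4 higher and the median −0.79; Slc25a20 gained a call (adjusted p = 0.0367). Deviations of same-numbered arrays correlated at 0.166, 0.00429 and 0.145, and those of different-numbered arrays at −0.188 to 0.0436. No label says what a replicate number shares, so the main fit has no block. Whether same-numbered arrays share a source was not settled.

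Median centring adds 0.675 to every difference, so any smaller fall must turn sign, and such a turn says nothing more about the gene. Signs turned with it for Acads (0.53), Cpt1a (0.47), Cs (0.19), Dld (0.10), Idh3g (0.03), Ogdh (0.22), Pcx (0.24) and Pdha1 (0.49). They also turned for Acsl5 (0.48), Pdk3 (0.32), Pdp2 (0.08) and Sdha (0.02). With the hybridization controls they turned for Cpt2 (−0.07), Glud1 (−0.19), Idh1 (−0.21), Mdh2 (−0.15), Me1 (−0.02), Mpc1 (−0.24), Sdhb (−0.04), Sdhd (−0.21), Acsl4 (−0.11) and Slc27a1 (−0.12). With quantile normalization they turned for Acads (0.28), Glud1 (−0.01), Idh1 (−0.04), Mdh2 (−0.01) and Mpc1 (−0.06), and with array weights for Idh1 (−0.01) and Glud1 (−0.01). The probe set mean turned Sdhd (−0.11). Leaving out 1 array turned Cpt1a (range −0.38 to 0.07), Idh1 (−0.01 to 0.08), Mpc1 (−0.06 to 0.07) and Sdhd (−0.02 to 0.12), with −0.04 for Mpc1 without Gr1lo replicate 3, and leaving out both replicate 3 arrays turned Mpc1 (−0.04). A dimmer probe set had the other sign for Cpt1a (0.03), Cpt2 (−0.14), Idh2 (0.27) and Mdh1 (0.12).

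Without detection calls, a value near the control level of 2.77 shows only that a gene is dim, and the size of a fall to near that level, as for Suclg2, was not tested under another background correction.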
